A study of Mus musculus with 10 samples.

Results

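Regulators of DNA methylation and of Polycomb repression were followed in Lin- bone marrow cells: Dnmt1, Dnmt3a, Dnmt3b, Tet1, Tet2, Tet3, Ezh1, Ezh2, Bmi1 and Asxl1. They were taken by name from the deposited expression table, in which they are 10 of 55359 genes, and all 10 passed the filter on low values. Lin- cells are what remains of bone marrow after a depletion kit has removed cells carrying the surface markers of mature blood lineages. RNA was sequenced from 5 libraries of Dhx9f/f mice (WT), whose floxed Dhx9 alleles are intact, and 5 libraries of Dhx9f/f;MX1 mice (cKO), which carry the same floxed alleles and the MX1-Cre transgene. Its Cre sits behind the Mx1 promoter, which answers to interferon also outside blood cells and was switched on by repeated doses of the double-stranded RNA poly(I:C), within days of the analysis. The study's methods describe sex as randomized and replicates in general as individual mice, but give neither for a single library here. The sources used here do not state the age of the sequenced mice or whether those of WT had poly(I:C) too. The p-values measure the spread between these libraries.

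Levels are FPKM, which corrects fragment numbers for gene length and for library depth. The depth recovered from the values was 13833864 to 17195874 fragments in the libraries labelled cKO and 15041597 to 18717136 in those labelled WT, and a 1-kb gene at the floor of 3 fragments stood at 0.160 to 0.217 FPKM. Dhx9, the targeted RNA helicase, went against the labels. WT libraries held 65.43 to 72.42 FPKM of it and those labelled cKO 130.82 to 156.49 FPKM, a log2 fold change of 1.0 (adjusted p = 1.39e-05, limma). Groups are therefore named by their labels, and "higher" or "lower" means in the libraries labelled cKO relative to WT. Xist was above 99 FPKM in WT replicates 3, 4 and 5 and below 0.1 FPKM in the other 7 libraries, so a difference in sex was partly aligned with the labels. Across 18742 tested genes, 862 were called higher and 3153 lower (adjusted p under 0.05 and at least 2-fold), which is 4.60% and 16.8%, and the median log2 fold change was -0.11.

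DNA methylation at CG dinucleotides is placed on new sites by Dnmt3a and Dnmt3b and copied to the daughter strand by Dnmt1, while the Tet dioxygenases oxidise it as a first step towards its removal. Polycomb repressive complex 2 (PRC2), whose catalytic subunit is Ezh1 or Ezh2, methylates histone H3 at lysine 27. PRC1, which can contain Bmi1, ubiquitinates histone H2A, and the PR-DUB complex of Bap1 with an Asxl protein removes that ubiquitin. In blood stem cells Bmi1 and Ezh1 are known for sustaining self-renewal, and DNMT3A, TET2 and ASXL1 are the genes most often mutated in human clonal haematopoiesis.

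Start sites of the members lie mostly in CG-rich sequence, and CG dinucleotides are the substrate of the Dnmt and Tet enzymes among them. RefSeq promoter windows of 300 bases (250 before and 50 after a start, from GRCm38.p6) were available for all 10 members, 14 windows in all, and each was placed in GRCm39 by a single exact match. CG dinucleotides numbered 2 to 57 per window, against a median of 7 in 32851 windows, and 13 of the 14 lay above that median. The highest count, 57, was at Tet2 (99.9th percentile) and the lowest, 2, at one of the Dnmt1 windows. The 30 bases just before the start are shown for the members whose levels moved, 5′ to 3′ on the gene's strand with CG in capitals. The Dnmt3a stretch is that of the first of its 3 windows.
Tet1, chr10:62723104-62723133, minus strand: gtaccCGCGcactcCGctCGtggaacactg
Tet2, chr3:133250152-133250181, minus strand: gctCGcatgccagtcaCGtcCGccccctCG
Dnmt3a, chr12:3856950-3856979, plus strand: ccCGgCGgaggaggCGgagagagggagCGc
Bmi1, chr2:18681799-18681828, plus strand: agccCGcctcccccaCGCGagtctgaaatc
The 4 stretches hold 3 or 4 CG each, and the whole windows hold 17 in Tet1, 57 in Tet2, 46 in Dnmt3a and 23 in Bmi1. The other 2 Dnmt3a windows hold 47 and 18, with 4 and 1 CG in their last 30 bases before the start.

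The windows were also searched on both strands for letters bound by E2F, the S-phase activator (TTTGGCGC or TTTCGCGC), by PU.1, the myeloid master regulator (GAGGAAGT), and by RUNX (TGTGGTTT). E2F letters were in 2 of the 14 windows, one of Ezh2 and one of Dnmt1, and in 0.81% of all windows. PU.1 and RUNX letters were in 0 of the 14, against 3.2% and 1.78% of all windows. The 3 matches are shown because both genes are the abundant, S-phase-associated members of their families, with the matched letters in capitals as read on the gene's strand.
Ezh2, chr6:47571943-47571972, minus strand: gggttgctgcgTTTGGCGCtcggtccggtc
Dnmt1, chr9:20864120-20864149, minus strand: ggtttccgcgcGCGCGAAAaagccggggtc
Dnmt1, chr9:20863870-20863899, minus strand: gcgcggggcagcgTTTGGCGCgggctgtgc
A match describes these letters only and is not evidence of binding.

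Of the 10 members, 2 were called lower (Dnmt3a and Tet1) and 0 higher. With the adjusted p alone, 3 were lower (Dnmt3a, Tet1 and Tet2) and 1 was higher (Bmi1), while 6 did not pass. Over all tested genes 16.8% were called lower and 4.60% higher. The background by adjusted p alone was 28.3% of tested genes lower and 16.7% higher. The median over the members was -0.15 on the log2 scale, near the -0.11 of all genes. The libraries of the 2 labels did not overlap for 4 members, 3 below WT and 1 above, where 21.6% and 10.6% of all tested genes did the same.

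**Figure D1:**
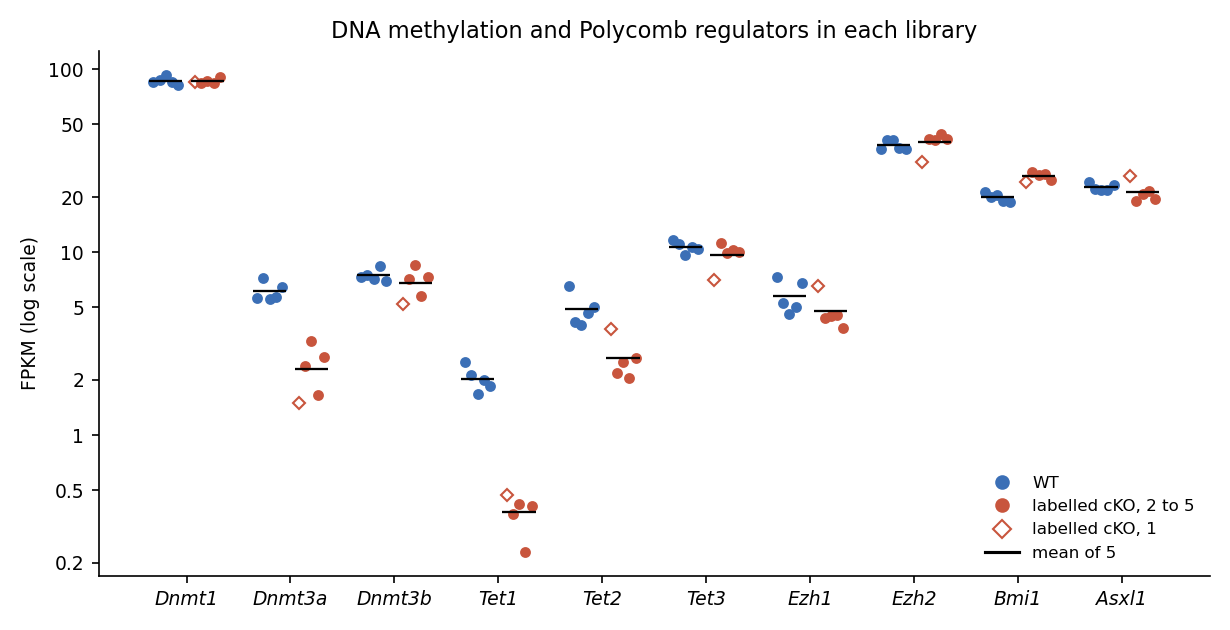
FPKM (log axis) of each of the 10 regulators in every library, with WT in blue, libraries labelled cKO in red, cKO replicate 1 as an open diamond and the mean of 5 as a bar. Dnmt3a, Tet1 and Tet2 lie below WT in all 5 libraries labelled cKO and Bmi1 lies above, while Dnmt1 and Ezh2 stay the most abundant members under both labels.

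Levels spanned a wide range. FPKM are per length, but the gene lengths used are not given in the sources used here. The order of genes and the shares within families rest on those lengths. In WT the order of mean FPKM was Dnmt1 (86.4), Ezh2 (38.4), Asxl1 (22.6), Bmi1 (19.9), Tet3 (10.7), Dnmt3b (7.46), Dnmt3a (6.11), Ezh1 (5.78), Tet2 (4.86) and Tet1 (2.03). The neighbours from Dnmt3b to Tet2 overlapped between libraries and are not ordered beyond their spread. In the libraries labelled cKO, Bmi1 (25.9) and Asxl1 (21.4) exchanged places with overlapping ranges, and Dnmt3a (2.30) fell behind Ezh1 (4.75) and Tet2 (2.63). Tet2 and Dnmt3a overlapped there, as did Tet3 with Dnmt3b and Dnmt3b with Ezh1. Tet1 (0.380) stayed last under both labels.

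Among the DNA methyltransferases, Dnmt3a alone passed the test. Dnmt3a (ENSMUSG00000020661, chromosome 12 of GRCm39 from 3856007 to 3964443, plus strand) was at 5.63, 7.24, 5.53, 5.71 and 6.44 FPKM in WT replicates 1 to 5. It was at 1.5, 2.37, 3.28, 1.66 and 2.67 FPKM in cKO replicates 1 to 5, so that the highest of these was below the lowest WT library. The means were 6.11 ± 0.727 and 2.30 ± 0.733 FPKM (SD, n = 5 each), with a log2 fold change of -1.42 (SE 0.202, 95% interval -1.87 to -0.98, adjusted p = 3.18e-04, limma).

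Dnmt3b, the second de novo enzyme (ENSMUSG00000027478, chromosome 2 from 153490861 to 153529650, plus strand), overlapped between the labels, with 7.34, 7.46, 7.12, 8.43 and 6.93 FPKM in WT and 5.22, 7.14, 8.51, 5.73 and 7.30 FPKM under the cKO label. The log2 fold change of -0.15 (SE 0.131, 95% interval -0.44 to 0.14, adjusted p = 0.375) did not pass the test. The maintenance enzyme Dnmt1 (ENSMUSG00000004099, chromosome 9 from 20817945 to 20871184, minus strand) was the most abundant member and the steadiest. It was at 84.96, 87.16, 93.37, 84.63 and 81.92 FPKM in WT and at 84.86, 83.55, 86.10, 84.40 and 90.63 FPKM under the cKO label, a log2 fold change of -0.01 (95% interval -0.12 to 0.11, adjusted p = 0.919).

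The ratio of the 2 de novo enzymes shows how unequal their changes were. Within a library, the log2 ratio of Dnmt3a to Dnmt3b was -0.29 on average in WT and -1.56 under the cKO label, a difference of -1.27 with no overlap (exact permutation test, two-sided, p = 0.00794, the smallest that 5 against 5 can give, adjusted p = 0.0139 over 7 ratios). As a share of their summed FPKM, Dnmt3a made up 40.4% to 49.3% in WT and 22.3% to 27.8% in the libraries labelled cKO, while the sum went from 13.6 ± 0.844 to 9.08 ± 2.05 FPKM (SD, n = 5). The log2 ratio of Dnmt1 to Dnmt3a went from 3.81 to 5.22, again without overlap (exact permutation adjusted p = 0.0139).

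The Tet dioxygenases differed among themselves in the same way. Tet1 (ENSMUSG00000047146, chromosome 10 from 62640349 to 62744775, minus strand) showed the largest change of the 10 members. It was at 2.51, 2.13, 1.67, 1.99 and 1.85 FPKM in WT and at 0.47, 0.37, 0.42, 0.23 and 0.41 FPKM under the cKO label, with every one of these below every WT library. The means were 2.03 ± 0.318 and 0.380 ± 0.0911 FPKM (SD, n = 5 each) and the log2 fold change was -2.16 (SE 0.207, 95% interval -2.62 to -1.70, adjusted p = 6.0e-05, limma). By its annotated length, the lowest library held about 53 fragments of Tet1 and the highest about 646, so all values were well above the floor of 3. At a pseudocount of 1, the change was -1.13 and still called.

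Tet2 (ENSMUSG00000040943, chromosome 3 from 133169436 to 133250900, minus strand) was at 6.51, 4.14, 3.99, 4.63 and 5.03 FPKM in WT. Under the cKO label it was at 3.80, 2.18, 2.50, 2.05 and 2.63 FPKM, lower in all 5, with replicate 1 the nearest to WT. The log2 fold change was -0.87 (SE 0.188, 95% interval -1.29 to -0.46, adjusted p = 0.00327), which passed the adjusted p but not the 2-fold limit. Without cKO replicate 1 it was -1.01 (adjusted p = 7.08e-04), past both, and under quantile normalization it was -0.48 (adjusted p = 0.0352).

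Tet3, the most abundant of the 3 (ENSMUSG00000034832, chromosome 6 from 83339355 to 83436066, minus strand), was at 11.61, 11.13, 9.62, 10.67 and 10.35 FPKM in WT and at 7.06, 11.17, 9.88, 10.21 and 10.03 FPKM under the cKO label. Replicate 1 was low and the other 4 lay within the WT range, and the log2 fold change of -0.15 (95% interval -0.42 to 0.11, adjusted p = 0.316) did not pass. The summed FPKM of the 3 genes went from 17.6 ± 1.93 to 12.7 ± 0.881 (SD, n = 5). The share of Tet1 in it went from 11.5% ± 0.689 to 3.02% ± 0.844 and that of Tet3 from 61.0% to 75.9%.

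The log2 ratio of Tet1 to Tet2 went from -1.21 to -2.50 without overlap (exact permutation p = 0.00794, adjusted p = 0.0139), so Tet1 fell further than Tet2. The size of this difference, -1.29, depends on the pseudocount and was -1.52 at 0.01 and -0.44 at 1, past the test each time. That of Tet3 to Tet2 went from 1.14 to 1.86 and overlapped because of cKO replicate 1 (exact permutation p = 0.0397, adjusted p = 0.0556). Without that library the difference was 0.96, with an adjusted p of 0.0159 by the same exact permutation test, the smallest it can give there. With any other library left out that adjusted p was 0.0889 to 0.111.

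**Figure D2:**
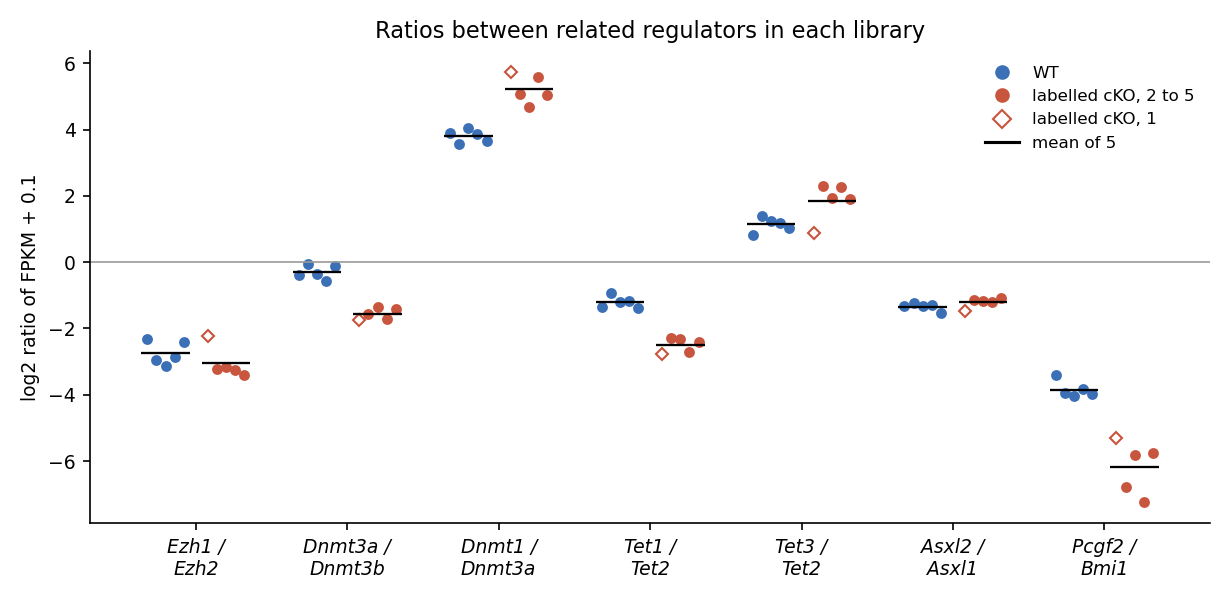
Log2 ratio of FPKM + 0.1 between 7 pairs of related genes in each library, with WT in blue, libraries labelled cKO in red, cKO replicate 1 as an open diamond and the mean of 5 as a bar. The ratios of Dnmt3a to Dnmt3b, Dnmt1 to Dnmt3a, Tet1 to Tet2 and Pcgf2 to Bmi1 separate the labels, and cKO replicate 1 stands apart in those of Ezh1 to Ezh2 and Tet3 to Tet2.

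The PRC2 methyltransferases changed little. Ezh2, the form abundant in dividing cells (ENSMUSG00000029687, chromosome 6 from 47507073 to 47572331, minus strand), was at 36.39, 40.92, 41.16, 37.02 and 36.44 FPKM in WT. Under the cKO label it was at 31.11, 41.36, 40.89, 44.28 and 41.54 FPKM, with replicate 1 below and the other 4 at or above the middle of the WT range. The log2 fold change was 0.05 (SE 0.0936, 95% interval -0.16 to 0.25, adjusted p = 0.725).

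Ezh1, the form kept by resting cells (ENSMUSG00000006920, chromosome 11 from 101081934 to 101117315, minus strand), was at 7.29, 5.25, 4.56, 5.03 and 6.76 FPKM in WT and at 6.50, 4.38, 4.50, 4.55 and 3.83 FPKM under the cKO label. Its log2 fold change was -0.28 (SE 0.169, 95% interval -0.65 to 0.10, adjusted p = 0.208). Without cKO replicate 1 the adjusted p was 0.0484 at a change of -0.39. With any other library left out the adjusted p by limma was 0.124 to 0.407. The summed FPKM of both was 44.2 in WT and 44.6 under the cKO label, and Ezh2 made up 86.9% and 89.1% of it. The log2 ratio of Ezh1 to Ezh2 differed by -0.32 (exact permutation adjusted p = 0.222), and by -0.53 without cKO replicate 1 (exact permutation adjusted p = 0.0159, the smallest possible there). Without WT replicate 1 it differed by -0.215 (exact permutation adjusted p = 0.413).

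Bmi1, the PRC1 subunit that represses the Cdkn2a locus (ENSMUSG00000026739, chromosome 2 from 18681292 to 18691441, plus strand), was the only member past the adjusted p in the upward direction. It was at 21.31, 19.98, 20.39, 19.11 and 18.67 FPKM in WT and at 24.05, 27.40, 26.54, 26.83 and 24.80 FPKM under the cKO label, each of the latter above every WT library. The means were 19.9 ± 1.05 and 25.9 ± 1.43 FPKM (SD, n = 5 each), with a log2 fold change of 0.38 (SE 0.0617, 95% interval 0.24 to 0.52, adjusted p = 6.38e-04, limma). The rise was below the 2-fold limit, and its adjusted p stayed under 0.05 in all alternatives run, at changes of 0.33 to 0.49.

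Asxl1, the PR-DUB cofactor (ENSMUSG00000042548, chromosome 2 from 153187730 to 153245927, plus strand), was at 24.06, 22.16, 21.92, 21.80 and 23.20 FPKM in WT and at 26.16, 19.11, 20.67, 21.64 and 19.45 FPKM under the cKO label. Replicate 1 was the highest of all 10 libraries and the other 4 were below the lowest WT library. The log2 fold change was -0.09 (SE 0.0863, 95% interval -0.28 to 0.10, adjusted p = 0.438), and without cKO replicate 1 it was -0.16 (adjusted p = 0.0348). With any other library left out the adjusted p by limma was 0.426 to 0.693. Ezh2, Tet3 and Asxl1 overlap genes on the opposite strand (Cul1, Bola3 and 2500004C02Rik, at mean levels of 57.0, 17 and 3.15 FPKM). Whether strand was used in counting is not stated, so their reads may be shared.

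**Figure D3:**
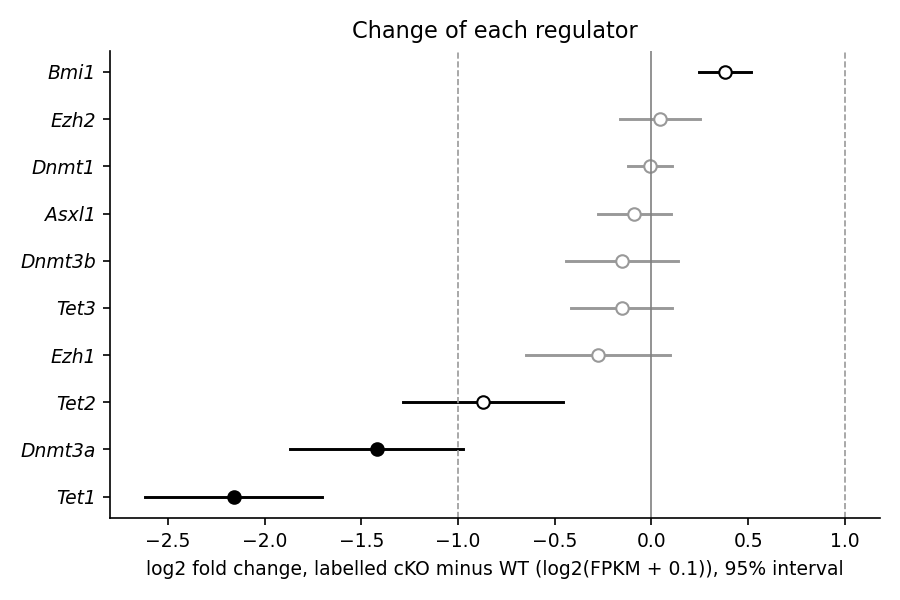
Log2 fold change (libraries labelled cKO minus WT, on log2(FPKM + 0.1)) of each regulator with its 95% interval from limma, with dashed lines at 2-fold. Filled points passed the adjusted p and the 2-fold limit (Tet1 and Dnmt3a), black open points the adjusted p alone (Tet2 and Bmi1), and grey points neither.

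The RNA of cell type markers differed between the labels together with these genes. In bulk RNA, fewer cells of a type and less RNA per cell cannot be told apart. Markers of stem and progenitor cells summed to 120 to 163 FPKM in WT and to 33.8 to 67.1 under the cKO label, with 7 of 10 called lower and 0 higher. Monocyte and dendritic markers summed to 811 to 1433 and to 6.11 to 246 FPKM, with 10 of 10 called lower. Megakaryocyte markers (277 to 1262 against 79.9 to 183 FPKM, 8 of 8 lower), B-lymphoid markers (26.6 to 34.5 against 0.87 to 7.94 FPKM, 3 of 6 tested lower) and T and NK markers (78.4 to 102 against 7.07 to 27.7 FPKM, 4 of 6 lower) moved the same way. Neutrophil markers were at 2217 to 3021 and at 108 to 2322 FPKM, 4 of 10 lower, and the highest of the latter was cKO replicate 1. Erythroid markers summed to 992 to 1367 FPKM in WT and to 2604 to 4763 under the cKO label, with 4 of 9 called higher. Beside these counts, 4.60% of all tested genes were called higher and 16.8% lower. The part of cell composition in the lower Dnmt3a, Tet1 and Tet2 and the higher Bmi1 was not tested.

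Sex and cycling were read in the same libraries. Within the 7 libraries with Xist below 1 FPKM (2 WT and 5 labelled cKO), Tet1 was at -2.35 (adjusted p = 0.00807, limma). By limma Dnmt3a was at -1.49 (adjusted p = 0.0202), Tet2 at -0.99 (adjusted p = 0.0454) and Bmi1 at 0.33 (adjusted p = 0.0277). The labels did not overlap in any of these genes, so leaving libraries out could not turn the direction seen over all 10. Only the size of the change and its adjusted p could differ. The 15 S-phase genes had 0 called in either direction by limma, 3 higher by the adjusted p alone, 5 higher and 1 lower by an unadjusted p under 0.05, and a median of 0.14, and their sums of 1023 to 1454 FPKM in WT and 1242 to 1493 FPKM under the cKO label overlapped. Pcna, the replication clamp and the most abundant of them, was at 205 ± 33.9 and 233 ± 21.4 FPKM (SD, n = 5, adjusted p = 0.176, limma).

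The wider machinery was read from 5 lists with 61 genes, of which 59 were tested. By limma 0 were called higher and 5 lower, with a median of -0.14. By the adjusted p alone 9 were higher and 25 lower, and by an unadjusted p under 0.05 these were 13 and 28. Over all tested genes the adjusted p alone gave 16.7% higher and 28.3% lower, the background for such counts in every list. For genes called with the 2-fold limit too, the background was 4.60% higher and 16.8% lower. The share of all tested genes past an unadjusted p was not computed, so those counts have no background here. Of 15 tested partners and readers of DNA methylation, 1 was called lower, and 3 were higher and 5 lower by the adjusted p alone. That 1 was Idh1, the cytosolic isocitrate dehydrogenase that makes the 2-oxoglutarate used by the Tet enzymes. Idh1 was at 39.73, 35.43, 27.15, 39.00 and 43.62 FPKM in WT and at 5.92, 3.09, 8.54, 2.34 and 13.06 FPKM under the cKO label, a log2 fold change of -2.72 (SE 0.402, adjusted p = 3.81e-04, limma). The lowest WT library was thus above the highest of the libraries labelled cKO. Uhrf1, which guides Dnmt1 to newly copied DNA and was the most abundant of the list over all 10 libraries, was at 77.0 ± 12.1 and 75.1 ± 10.5 FPKM (SD, n = 5, adjusted p = 0.844, limma).

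Tdg, Mbd4 and Idh2 of the same list were named after their values were seen and stand as examples only. Tdg, the glycosylase that excises oxidised methylcytosine, went from 14.4 ± 1.66 to 24.0 ± 1.98 FPKM (SD, n = 5, log2 fold change 0.73, adjusted p = 1.66e-04, limma). Mbd4, another glycosylase, fell from 9.93 ± 0.818 to 5.62 ± 1.21 FPKM (log2 fold change -0.83, adjusted p = 5.89e-04). Idh2, the mitochondrial isocitrate dehydrogenase, fell from 60.5 ± 4.36 to 31.4 ± 2.51 FPKM (log2 fold change -0.94, adjusted p = 3.64e-05). Under quantile normalization Idh2 was at -1.02 and so past the 2-fold limit.

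PRC2 partners had 0 of 11 called by limma, with 3 higher and 5 lower by the adjusted p alone, 3 and 6 by an unadjusted p under 0.05, and a median of -0.14. Rbbp7, the histone-binding subunit and the most abundant, rose from 142 ± 6.39 to 182 ± 6.52 FPKM (SD, n = 5, log2 fold change 0.36, adjusted p = 3.3e-04, limma). Jarid2, an accessory subunit that brings PRC2 to chromatin and was named after its values were seen, fell from 13.1 ± 0.590 to 8.05 ± 1.39 FPKM (log2 fold change -0.71, adjusted p = 5.44e-04). Lcor, also named after its values were seen, had the largest change of the list. It rose from 2.83 ± 0.211 to 5.03 ± 0.529 FPKM (log2 fold change 0.81, adjusted p = 2.28e-04, limma). Under quantile normalization Lcor was at 1.18 and so past the 2-fold limit.

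Of the 22 tested subunits of PRC1, the longest list, 4 were called lower and 0 higher by limma, a share near the 16.8% of all tested genes called lower. By the adjusted p alone 12 were lower and 2 higher, where 28.3% and 16.7% of all tested genes were. By an unadjusted p under 0.05 these counts were 13 and 3, and the median was -0.33. Cbx8, a chromobox reader of methylated lysine 27, was at 3.3, 3.0, 2.22, 3.42 and 3.24 FPKM in WT and at 0.22, 0.49, 0.80, 0.36 and 0.91 FPKM under the cKO label (log2 fold change -2.37, SE 0.310, adjusted p = 2.08e-04). Cbx2, a second chromobox reader, was at 2.86 ± 0.455 and 0.696 ± 0.203 FPKM (SD, n = 5, log2 fold change -1.92, adjusted p = 1.09e-04, limma). Bcorl1, a subunit of variant PRC1, was also called at -1.23 (adjusted p = 0.00116), and it missed the 2-fold limit at -0.92 with a pseudocount of 1 and at -0.81 under quantile normalization. Yaf2, the most abundant of the list over all 10 libraries, was at 15.6 ± 1.94 and 17 ± 1.35 FPKM (SD, n = 5, adjusted p = 0.338, limma).

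Pcgf2 (Mel18), the paralogue of Bmi1 that takes the same place in PRC1, moved against it. It was at 1.91, 1.2, 1.14, 1.26 and 1.09 FPKM in WT and at 0.51, 0.15, 0.37, 0.08 and 0.36 FPKM under the cKO label, all of the latter below WT (log2 fold change -1.96, SE 0.347, adjusted p = 0.00106). These levels lie near the pseudocount, and with one of 1 the change was -0.84 and missed the 2-fold limit. The log2 ratio of Pcgf2 to Bmi1 went from -3.84 to -6.18, a difference of -2.34 without overlap (exact permutation p = 0.00794, adjusted p = 0.0139), and of -2.74 and -1.21 with pseudocounts of 0.01 and 1.

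PR-DUB and the demethylases held 0 calls by limma. Of 8 tested genes of PR-DUB, 1 was higher and 3 lower, both by the adjusted p alone and by an unadjusted p under 0.05, with a median of -0.01, and Asxl3 was at 0 in all libraries. Hcfc1, the most abundant, was at 61.5 ± 5.93 and 65.8 ± 6.88 FPKM (SD, n = 5, adjusted p = 0.400, limma). The log2 ratio of Asxl2 to Asxl1 differed by 0.13 (exact permutation adjusted p = 0.222), and by 0.19 without cKO replicate 1 (exact permutation adjusted p = 0.0159, the smallest possible there). With any other library left out the exact permutation adjusted p was 0.206 to 0.397. Of the 3 lysine 27 demethylases, 0 passed the adjusted p and 1, the Y-linked Uty, an unadjusted p under 0.05. Kdm6a, X-linked and known to escape X inactivation, was at 14.26 to 14.92 FPKM in the 3 Xist-high WT libraries and at 9.72 and 8.14 FPKM in the other 2, and its cKO values were 13.99 in replicate 1 and 9.06 to 9.59 in the rest.

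**Figure D4:**
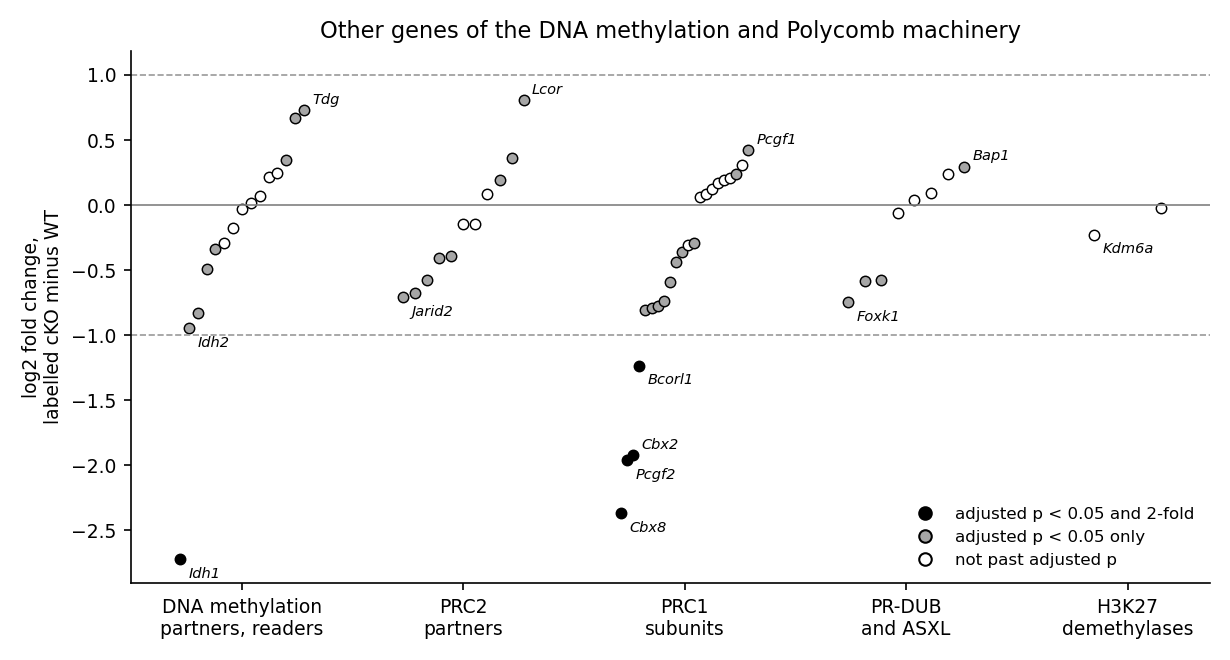
Log2 fold change (libraries labelled cKO minus WT) of the tested genes of 5 lists of the machinery, ordered within each list, with dashed lines at 2-fold. Black points were called (Idh1, Cbx8, Pcgf2, Cbx2 and Bcorl1, all lower), grey points passed the adjusted p alone and white points did not pass, and the Y-linked Uty is left out of the plot.

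Loci known to be silenced by these systems were mostly too low to test. Of 14 genes often marked by Polycomb, 4 passed the filter, and 2 of these, Cdkn2a and Cdkn2b, passed it only through the libraries labelled cKO. Their values are therefore given as a description, with no test and no count of calls. Cdkn2a, the cell-cycle inhibitor locus repressed by Bmi1, was at 0, 0, 0.11, 0 and 0 FPKM in WT and at 1.97, 1.04, 0.64, 1.77 and 0.27 FPKM under the cKO label. The WT values are at or under the floor, so no fold is given. Its neighbour Cdkn2b was at 0, 0.04, 0.09, 0 and 0.14 FPKM in WT and at 0.78, 1.26, 1.26, 2.31 and 0.63 FPKM under the cKO label. Both genes average under 1 FPKM over the 10 libraries. Hmga2, a chromatin protein of self-renewing fetal stem cells, fell from 1.70 ± 0.236 to 0.608 ± 0.290 FPKM (SD, n = 5, log2 fold change -1.43, adjusted p = 0.00167, limma). Its call was lost with a pseudocount of 1 (-0.76) and under quantile normalization (-0.93).

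Of 14 imprinted genes 6 were tested, with 1, Grb10, called higher and 0 lower. By the adjusted p alone 2 were higher and 0 lower, where 16.7% and 28.3% of all tested genes were. The other was Impact, named after its values were seen. Impact was at 6.05 to 8.65 FPKM in WT and at 8.85 to 10.71 FPKM under the cKO label (log2 fold change 0.53, adjusted p = 0.00263, limma). Grb10, a growth-factor receptor adaptor, was at 4.69, 6.04, 7.03, 6.60 and 6.23 FPKM in WT and at 3.46, 23.64, 27.26, 14.44 and 25.18 FPKM under the cKO label (log2 fold change 1.32, SE 0.485, adjusted p = 0.0461). Replicate 1 was below WT and the other 4 above it, and the call was lost when any one of the other 9 libraries was left out (adjusted p = 0.0682 to 0.107). By limma the Grb10 call was also lost with Xist as a covariate (adjusted p = 0.114) and in the libraries with Xist below 1 FPKM (adjusted p = 0.199). The same held with no filter, equal sums or no trend (adjusted p = 0.0676, 0.0511 and 0.0646, limma). Of 10 germline genes known to be silenced by DNA methylation, 4 passed the filter. Of these, Dazl, named after its values were seen, passed it only through the libraries labelled cKO. Dazl was at 0.03 to 0.14 FPKM in WT and at 0.14 to 0.43 FPKM under the cKO label, given as a description with no test. None of the rest passed the adjusted p by limma. The most abundant, Ddx4, was at 1.5 ± 0.126 and 1.19 ± 0.269 FPKM (SD, n = 5, adjusted p = 0.146, limma).

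**Figure D5:**
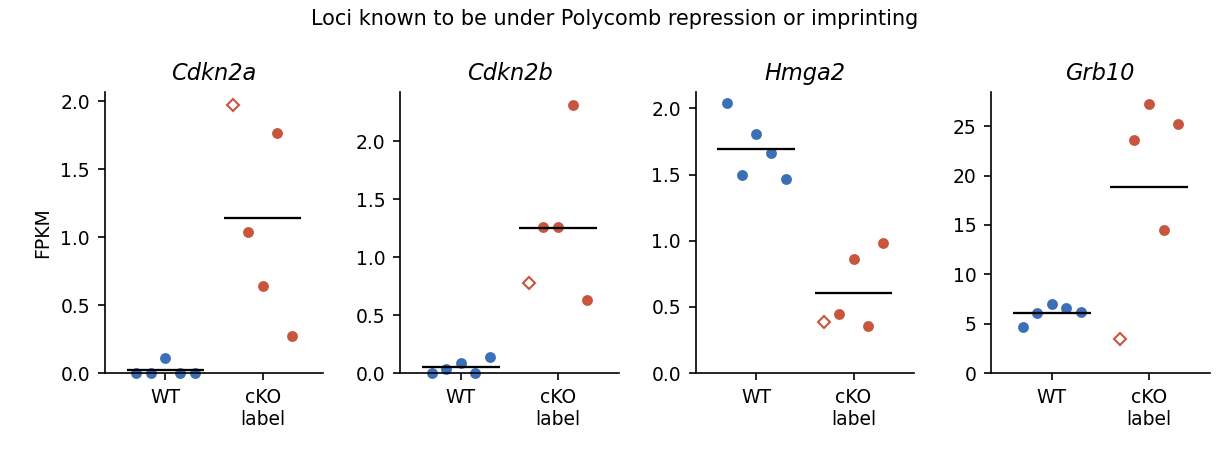
FPKM (linear axes from 0) of Cdkn2a, Cdkn2b, Hmga2 and Grb10 in each library, with WT in blue, libraries labelled cKO in red, cKO replicate 1 as an open diamond and the mean of 5 as a bar. Cdkn2a and Cdkn2b lie at 0 to 0.14 FPKM in WT and at 0.27 to 2.31 FPKM under the cKO label.

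Variation within a label was read as the deviation of each library from its label's mean, over the 10 libraries and 12352 genes of 1 FPKM or more on average. Such correlations share the library and its cell composition and are descriptions with no test. Among the members, Dnmt3a and Dnmt3b deviated together (Pearson r = 0.851), as did Ezh1 and Asxl1 (r = 0.845) and Tet2 and Ezh1 (r = 0.814). The gene most like Dnmt3a was Ahdc1 (r = 0.978), most like Tet1 was Zfp58 (r = 0.977), most like Tet2 was Lilrb4b (r = 0.979), most like Ezh2 was Scand1 (r = 0.990) and most like Bmi1 was Rad9b (r = 0.931). Dnmt1 was most like Polq (r = 0.919), and its nearest member, Ezh2, reached an r of 0.360. For Tet3, Ezh1, Asxl1 and Dnmt3b the nearest genes were Akt1, Arhgef25, Dcaf10 and Ccdc127, at r = 0.954 to 0.976.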

How the data were processed

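Lin- bone marrow RNA was sequenced in 5 WT libraries and 5 labelled cKO. The authors trimmed and aligned reads to GRCm39 and deposited an FPKM table. The submitters' processing notes list cutadapt 1.9.1, HISAT2 2.0.1 and HTSeq 0.6.1. The gene lengths behind the FPKM are not given in the sources used here. FPKM are not counts, so no count test was run. Depth was read from the steps of single-transcript genes, where 95.3% to 95.8% of values up to 20 fragments were whole within 0.2.

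Log2(FPKM + 0.1) of the 18742 genes averaging 0.1 FPKM or more was tested with limma 3.58.1 (R 4.3.3, trend, two-sided, Benjamini-Hochberg adjustment), calling genes at an adjusted p under 0.05 and 2-fold. The scripts were tested on simulated data. Within-library ratios were compared by exact permutation (scipy 1.17.1). The members, the gene lists and the motifs were chosen with earlier results of these data known. Named genes were the members, up to 3 called genes per list and direction with the largest change, and each list's most abundant gene. Others are said to be named after their values were seen. Alternatives were pseudocounts of 0.01 and 1, a filter at 1 FPKM or none, median-ratio scaling, equal sums, quantile normalization, no trend, a replicate block, adjusted p alone, Xist as a covariate, Xist-low libraries and each library left out.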

Additional observations from a re-analysis of the deposited data

Results flagged for a closer look

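Groups of 5 libraries were examined for 1 library standing apart (Dixon's gap ratio above 0.71). Of 64 groups of members, named genes and ratios, 9 held such a library, where chance gives about 1 in 20 groups (3.2), and 6 of the 9 were in cKO replicate 1. The groups share libraries, and the ratios share genes with the members, so they are not independent and the comparison with 3.2 is rough. In that library Ezh1 was at 6.5 FPKM (3.83 to 4.55 in the other 4) and Ezh2 at 31.11 FPKM (40.89 to 44.28). Kdm6a was at 13.99 FPKM there (9.06 to 9.59). The log2 ratio of Ezh1 to Ezh2 was -2.24 in it (-3.41 to -3.16 in the others), that of Tet3 to Tet2 was 0.88 (1.89 to 2.31), and that of Asxl2 to Asxl1 was -1.49 (-1.19 to -1.09). The other 3 were in WT. Pcgf2 was at 1.91 FPKM in WT replicate 1 (1.09 to 1.26 in the others), Ddx4 at 1.72 FPKM in WT replicate 5 (1.42 to 1.5) and Cdkn2a at 0.11 FPKM in WT replicate 3 (0 in the others).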

How the results depend on the processing

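Dnmt3a and Tet1 were called lower under each alternative run, at -1.06 and -1.68 under quantile normalization and at -1.13 each with a pseudocount of 1. Members called higher were 1 by adjusted p alone. Over all genes, those called higher were 356 with a pseudocount of 1, 462 at a mean of at least 1 FPKM, 1581 under quantile normalization, 3138 by adjusted p alone and 541 in the Xist-low libraries, and those called lower were 1486 with a pseudocount of 1, 1827 at that mean and 5300 by adjusted p alone. Quantile normalization moved the median of all genes from -0.11 to 0.10 and the share of calls that were higher from 21.5% to 41.3%. Partner genes called higher were 1 under median-ratio scaling, 2 under quantile normalization and 9 by adjusted p alone, and 0 to 1 with a library left out (1 without WT replicate 1 or 2, the Y-linked Uty). Partner genes called lower were 3 with a pseudocount of 1 and 25 by adjusted p alone.

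Changes that turned sign had not passed the test, and the cause was not tested: Under median-ratio scaling Dnmt1 was at 0.099, Asxl1 at 0.0181 and Uhrf1 at 0.0737. With a library left out, Dnmt1 ran from -0.027 to 0.0207 (above 0 without WT replicate 3 or cKO replicate 2) and Uhrf1 from -0.111 to 0.0471 (above 0 without WT replicate 3 or cKO replicate 4). Under quantile normalization Dnmt3b was at 0.0646, Ezh1 at 0.0122, Ezh2 at -0.0263, Hcfc1 at -0.0118 and Ddx4 at 0.19. With Xist as a covariate or in the Xist-low libraries, Uty was at -0.30 and Kdm6a at 0.20. With a library left out, the log2 ratio differences ran from -0.525 to -0.215 for Ezh1 to Ezh2, 0.604 to 0.961 for Tet3 to Tet2 and 0.0789 to 0.194 for Asxl2 to Asxl1, and the value farthest from 0, without cKO replicate 1, passed the adjusted p each time. That adjusted p was 0.0159 for every ratio without that library, the smallest the exact permutation test can give there.

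Replicate numbers are shared between labels but did not pair the libraries: same-numbered libraries correlated at -0.01 to 0.12, and 2 of 5 matched their own number best. The replicate block gave 857 genes higher and 3107 lower. In it the ratios Dnmt3a to Dnmt3b (-1.27), Dnmt1 to Dnmt3a (1.41), Tet1 to Tet2 (-1.29) and Pcgf2 to Bmi1 (-2.34) kept their size, but the exact permutation of 5 pairs cannot go below p = 0.0625. In the Xist-low libraries they were -1.35, 1.49, -1.37 and -2.50, where the smallest p of the exact permutation test is 0.0952.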
